A study of Mus musculus with 10 samples.

Results

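The replication-dependent histone genes are the mouse genes whose symbols start with Hist1h, Hist2h, Hist3h or Hist4, and 67 of the 32285 genes in the deposited tables met that rule. They were described across marker-gated cell types and treatments in livers carrying metastases of colorectal cancer, whose cells were sequenced for RNA one droplet at a time, with T cell receptors read from the same livers. Control livers 11 and 25 (n = 2) came from mice given a control lentiviral vector (LV). IFNa livers 18 and 23 (n = 2) came from mice given an IFNa LV, a vector that delivers a type I interferon. Liver 22 (n = 1) received IFNa plus aCTLA4, an antibody that blocks the T cell brake CTLA-4, and is called the combination. All livers were minced and digested with enzymes, and viable single cells negative for the dye 7AAD were sorted without antibodies. Nothing in the labels ties each liver to a mouse of its own, and p-values therefore cover the spread among these samples alone, part of which may be technical.

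Replication-dependent histone genes code for the linker histone H1 and for the core histones H2A, H2B, H3 and H4, around which newly copied DNA is wrapped. Most of their mRNAs are made in S phase and end in a short stem-loop in place of a poly-A tail, and the stem-loop binding protein SLBP carries them through processing, translation and decay at the end of replication. Some of these genes also give poly-A tailed transcripts, which have been described in differentiated cells outside S phase. The libraries were primed on poly-A, per the labels' protocols, so a stem-loop transcript without a tail is captured poorly and a UMI (unique molecular identifier, 1 captured RNA molecule) count cannot be read as the amount of all histone mRNA.

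The stem-loop was sought in the annotated transcripts (GENCODE M21, build GRCm38), and it was found in 46 of the 67 members. The stretches of the members the results turn on are printed 5′ to 3′, with the stem and loop in capitals, because they show the shared end of these mRNAs and the base changes that set the H4 genes apart. The H4 stems start with GGCCC or GGTCC, while the stems of the other histones start with GGCTC in every member with a match.
Hist1h1e (H1, chr13:23621777-23621802, minus strand): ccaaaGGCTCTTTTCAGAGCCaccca
Hist1h1c (H1, chr13:23739507-23739532, plus strand): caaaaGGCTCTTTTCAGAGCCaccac
Hist1h2ae (H2A, chr13:23570663-23570688, minus strand): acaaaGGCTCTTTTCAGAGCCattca
Hist1h2ab (H2A, chr13:23751567-23751592, plus strand): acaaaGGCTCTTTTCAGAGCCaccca
Hist1h2bj (H2B, chr13:22043633-22043658, plus strand): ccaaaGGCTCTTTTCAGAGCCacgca
Hist1h3e (H3, chr13:23561898-23561923, minus strand): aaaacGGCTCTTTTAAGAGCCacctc
Hist1h4d (H4, chr13:23581945-23581970, plus strand): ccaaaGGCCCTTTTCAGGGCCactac
Hist1h4i (H4, chr13:22040961-22040986, minus strand): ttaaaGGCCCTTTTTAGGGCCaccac

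All these windows lie in the 3′ untranslated part of single-transcript genes of the large cluster on chromosome 13, which holds 54 members. The clusters on chromosomes 3, 11 and 6 hold 10, 2 and 1. In 23 members the annotated transcript runs at least 100 bases past the stem-loop, and these members took 68.6% of all histone UMIs, with a median of 1424 UMIs each. In the 23 members with under 100 annotated bases past it, the median was 384 UMIs and the share 12.4%, and the 21 members without a match took the remaining 19.0%. Hist1h1e, Hist1h1c and Hist1h4d run 1153, 840 and 770 annotated bases past their stem-loops, whereas Hist1h2ap and Hist1h2ab end 3 and 11 bases past it. Several short-ended members also share most of their stretches of 60 bases with other members (Hist1h2ap 92.9%, Hist2h2aa1 89.0%, Hist2h2aa2 100%). Hist1h1c and Hist1h1d share 7.6% and 1.87%, but the order is not strict: Hist1h3e, of the long-ended members, shares 68.0% and Hist2h2ac, of the short-ended ones, 28.2%. The part of shared sequence in these UMI counts was not tested. These are descriptions of the annotation, and which end each captured molecule had was not measured.

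**Figure D1:**
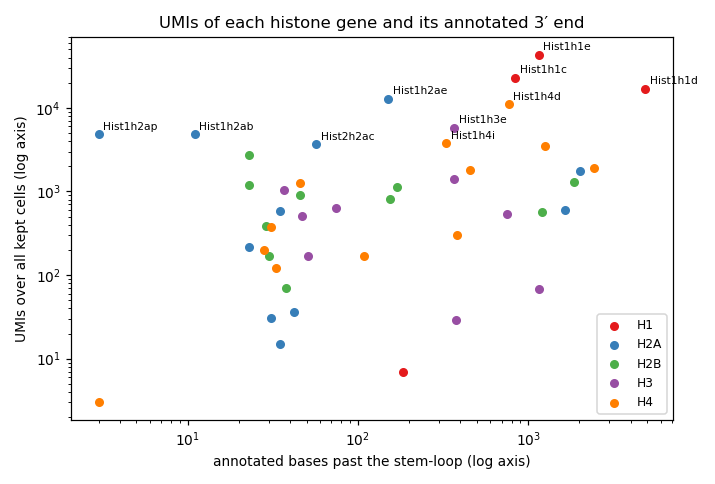
Each point is 1 histone gene with a stem-loop match and at least 1 UMI; the x axis gives the annotated bases past the stem-loop and the y axis the UMIs summed over all kept cells of the 5 livers, both on log axes, coloured by histone. Hist1h1e, with 43377 UMIs, lies 1153 bases along the x axis, and the genes with under 100 bases stay at or below 4829 UMIs.

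Promoters from RefSeq (GRCm38.p6) were found for 62 members, as windows of 250 bases before to 50 bases after the start. The CCAAT motif (either strand) was in 53 of the 62 windows, or 85.5%, against 37.9% of all 27025 promoter windows of that length. It was in every H1, H2A, H2B and H3 window and in 3 of 12 H4 windows. The octamer ATTTGCAT (either strand) was in 13 windows, 7 of H2A and 6 of H2B, or 21% against 1.75% of all promoters. The H1 box AAACACA (either strand) was in 5 of 6 H1 windows against 7.14% of all promoters, and TATAAA (either strand) was in 35 of the 62 against 14.2%. A match describes letters and not a bound site, and 20 windows overlap that of a neighbouring member, so they are not independent. The promoters of 4 members the results turn on are printed with these motifs in capitals.
Hist1h1e (chr13:23622509-23622808, minus strand; H1 box, CCAAT and TATA motifs): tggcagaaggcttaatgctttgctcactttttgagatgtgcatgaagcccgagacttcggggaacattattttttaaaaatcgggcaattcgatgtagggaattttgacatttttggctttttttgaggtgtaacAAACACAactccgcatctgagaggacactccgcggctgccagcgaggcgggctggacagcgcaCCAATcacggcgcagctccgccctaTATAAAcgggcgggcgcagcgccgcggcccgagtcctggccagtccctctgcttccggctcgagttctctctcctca
Hist1h1b (chr13:21780576-21780875, minus strand; H1 box, 3 CCAAT on either strand, TATAAA): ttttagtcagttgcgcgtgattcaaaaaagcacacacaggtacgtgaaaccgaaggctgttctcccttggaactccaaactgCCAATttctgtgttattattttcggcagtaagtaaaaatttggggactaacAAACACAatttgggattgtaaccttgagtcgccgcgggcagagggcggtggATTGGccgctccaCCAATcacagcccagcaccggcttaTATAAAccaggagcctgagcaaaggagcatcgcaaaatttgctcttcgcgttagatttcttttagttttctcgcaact
Hist1h2ae (chr13:23571171-23571470, minus strand; octamer, CCAAT and TATAAA on either strand): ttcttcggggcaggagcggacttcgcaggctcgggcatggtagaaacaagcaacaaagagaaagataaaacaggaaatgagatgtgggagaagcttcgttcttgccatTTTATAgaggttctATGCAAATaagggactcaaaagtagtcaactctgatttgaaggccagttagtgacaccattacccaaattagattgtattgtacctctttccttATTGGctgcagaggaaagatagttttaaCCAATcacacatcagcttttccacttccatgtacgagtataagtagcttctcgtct
Hist1h4d (chr13:23581318-23581617, plus strand; CCAAT on the other strand, TATAAA): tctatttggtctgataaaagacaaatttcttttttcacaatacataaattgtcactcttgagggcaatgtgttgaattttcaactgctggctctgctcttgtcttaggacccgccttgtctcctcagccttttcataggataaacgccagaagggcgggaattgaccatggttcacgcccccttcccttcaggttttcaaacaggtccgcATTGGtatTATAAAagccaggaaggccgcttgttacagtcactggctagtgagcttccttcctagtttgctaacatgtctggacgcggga

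The 5 libraries held 10464216 to 69856071 UMIs over 28039 barcodes, of which 27771 were kept and 20943 were gated to a class by at least 3 of its markers. Another 2215 were removed as doublets and 4613 stayed ungated, including 22.1% of the kept cells of the combination, whose ungated cells had a median of 1442 UMIs. The libraries shared 398 barcodes between at least a pair of them. A T cell receptor beta chain was found in 78.9% of gated T cells, in at most 3.38% of any other gate and in 35.1% of the doublets. Summed over all kept cells, histone UMIs made up 697.8, 1185, 803.6, 638.7 and 997.1 per 1000000 UMIs (CPM) in Control 11, Control 25, IFNa 18, IFNa 23 and the combination, the order kept throughout.

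The 67 members held 193146 UMIs in kept cells. The 6 genes of the linker histone H1 gave 53.6% of them, led by Hist1h1e (43377 UMIs), Hist1h1c (22876), Hist1h1b (16876) and Hist1h1d (16833). The 18 H2A genes gave 19.4%, led by Hist1h2ae (12790), Hist1h2ak (5123), Hist1h2ap (4829) and Hist1h2ab (4812). The 13 H4 genes gave 13%, led by Hist1h4d (11032), with Hist1h4i at 3780. The 18 H2B genes gave 8.09% and the 12 H3 genes 5.94%, led by Hist1h3e (5790). These sums count captured molecules and are not per length, so they do not rank the genes' mRNA. The 12 members with the most UMIs, which also include Hist2h2ac (3673), took 78.6%. At the other end, 12 members had 1 to 99 UMIs, and the H2A and H2B variants Hist1h2aa and Hist1h2ba, listed as testis genes, had 0, as the linker variant Hist1h1t, of male germ cells, had 7. Hist1h1a, on the same list, had 3496. Members share sequence: 29 have over 50% of their 60-base stretches in another member, and 7 overlap another gene on the same strand, Hist1h1e among them with Hist1h2be. Counts of near-identical members (Hist1h2ap shares 92.9% of its stretches) are therefore uncertain, since how the authors' counting treated shared reads was not examined.

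Cells were assigned to cycle gates by how many genes they expressed of 25 S-phase genes (replication enzymes such as Mcm2 and Pcna) and 25 G2/M genes (such as Mki67 and Top2a), lists that hold no histone member. Cells with at least 15 of these genes were called cycling and those with at most 5 non-cycling, and 289 cells lay near the upper limit, at 13 to 16 genes. Cycling cells were 4.44% of all kept cells and 12.6% of their UMIs, and held 48.8% of the histone UMIs. In T cells they were 6.74% of cells and 17.8% of UMIs, and held 70.5% of the histone UMIs. The share of T cell UMIs found in cycling T cells was 87.5% for H2A, 75.2% for H3, 71.4% for H2B, 65.6% for H1 and 55.1% for H4. Of 41 members with at least 100 T cell UMIs, 16 had over 80% of them in cycling cells, Hist1h2ap (94.2%), Hist1h2ab (93.8%), Hist1h1b (91.8%) and Hist1h2ae (90.6%) among them. The share was under 40% in 4 members: Hist1h4c (34.9%), Hist1h4n (32.0%), Hist3h2ba (28.3%) and Hist2h2be (18.1%).

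**Figure D2:**
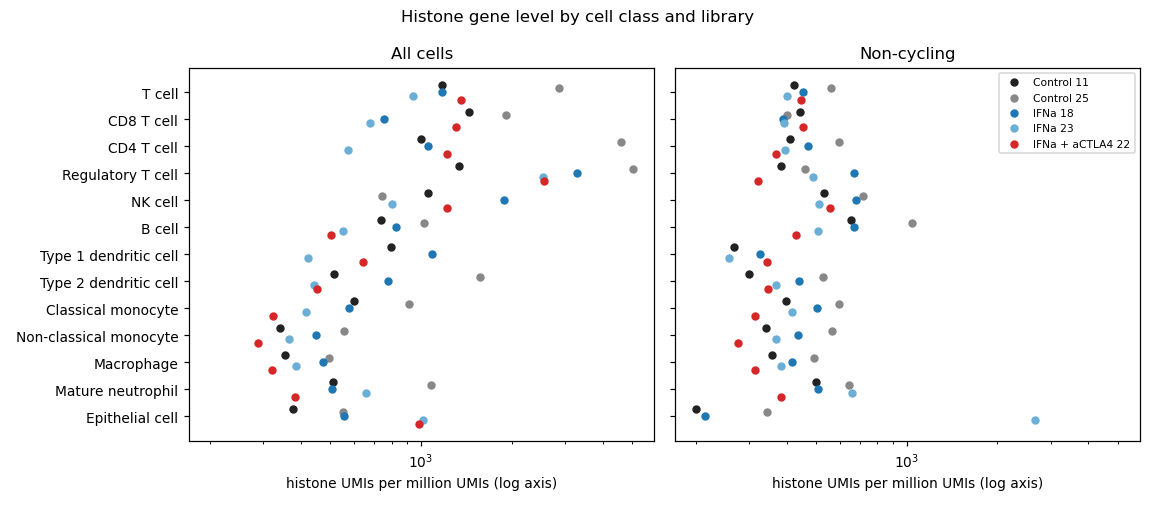
Histone UMIs per 1000000 UMIs of each class (x axis, log) for all cells (left) and non-cycling cells (right), 1 point for each liver with at least 10 cells, coloured by liver. Regulatory T cells reached 5055.4 in Control 25 over all cells (22 cells, 3 of them cycling), while non-cycling T cells lay between 401.2 and 562.0 in every liver.

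Over all cells of a class, regulatory T cells, the CD4 T cells that restrain other T cells, stood high in every liver, at 1334.0 and 5055.4 CPM in the Control livers, 3292.7 and 2528.7 in the IFNa livers and 2560.5 in the combination. CD8 T cells lay at 1445.6, 1917.6, 753.7, 677.0 and 1311.3 CPM in the same order, and CD4 T cells without Foxp3 at 998.4, 4608.1, 1053.8, 573.8 and 1215.5. Regulatory T cells were thus above CD4 T cells in all 5 livers and above CD8 T cells in 4 of them, with Control 11 the exception. In Control 25 these levels came from few cells: 22 regulatory, 27 CD4 and 40 CD8 T cells, of which 3, 2 and 4 were cycling. NK cells lay at 1054.2, 741.5, 1880.9, 800.4 and 1223.2 CPM and overlapped the CD8 T cells. Macrophages (319.9 to 493.9), non-classical monocytes (288.7 to 556.5) and plasmacytoid dendritic cells (174.5 to 387.5) stood low, and their ranges overlapped. B cells lay between 505.1 and 1021.7. In sums over cells, fewer cells of a kind (such as cycling ones) and less RNA per cell cannot be told apart. Among non-cycling cells, T cells lay at 401.2 to 562.0 CPM, CD8 T cells at 389.5 to 454.8, regulatory T cells at 321.2 to 668.2, NK cells at 512.4 to 715.3 and classical monocytes at 313.7 to 598.0. CD8 T cells there lay below NK cells, and the other ranges overlapped.

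In T cells the members rose together with the cell cycle. Non-cycling T cells of Control 11 and 25 held 423.3 and 562.0 histone CPM, those of IFNa 18 and 23 held 454.0 and 401.2, and those of the combination 446.0. Cycling T cells held 6910.8, 11791.0, 6051.6, 3734.2 and 4786.6 in the same order, so the gates did not overlap in any liver. Of the 67 members, 43 had counts enough to be tested in cycling against non-cycling T cells (edgeR quasi-likelihood test with the liver as a block, 4 livers with at least 10 cells in both gates), and 41 passed at an adjusted p of 0.05, all higher in cycling cells. The rate among all 11040 genes was 24.3% higher. The median log2 fold change was 4.05 over the members tested and -0.03 over all genes tested, but members that are low in resting cells could enter the test only through the cycling cells. Hist1h4n (1.00 ± 0.39, SE, adjusted p = 0.0575) and Hist3h2ba (0.61 ± 0.31, adjusted p = 0.125) did not pass. With the S-phase gate alone (at least as many S-phase as G2/M genes), 34 of 36 tested members were higher than in non-cycling cells, against 23% of all genes.

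**Figure D3:**
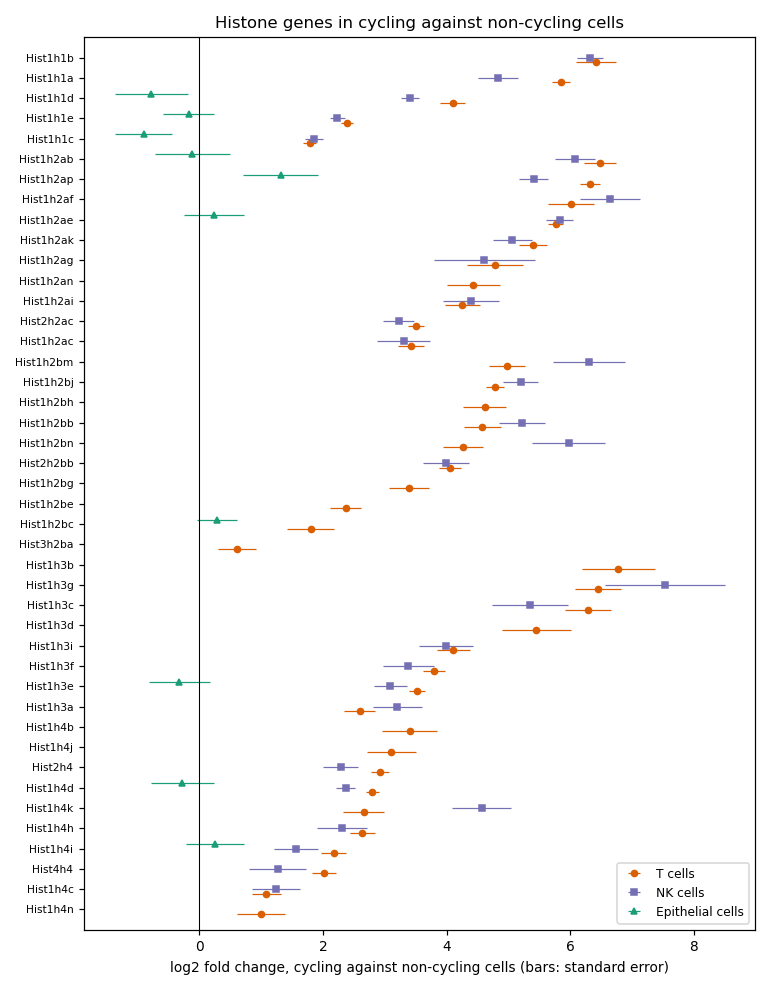
Log2 fold change of each tested histone gene in cycling against non-cycling cells (x axis; bars are standard errors), for T cells (circles), NK cells (squares) and epithelial cells (triangles), grouped by histone along the y axis. The T and NK cell points lie right of 0 throughout, from 0.61 for Hist3h2ba upward in T cells, and the 10 epithelial points lie between -0.90 and 1.31.

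By role, the linker histones ranged widely, with all 5 tested of 6 passing and log2 fold changes from 1.78 to 6.42. Hist1h1b stood at 5.9, 7.8, 2.3, 10.2 and 15.2 CPM in non-cycling T cells of Control 11, Control 25, IFNa 18, IFNa 23 and the combination, and at 1337.6, 2002.3, 756.8, 581.6 and 701.5 in cycling ones, a rise of 6.42 ± 0.33 (log2, SE, adjusted p = 3.20e-08). Hist1h1e, whose product is another main H1 of somatic cells, already stood at 120.1, 185.2, 129.7, 111.5 and 136.3 CPM in non-cycling T cells and at 744.3, 1624.0, 688.4, 468.7 and 723.0 in cycling ones, a rise of 2.38 ± 0.10 (adjusted p = 4.50e-09). Hist1h1c stood at 83.5, 103.6, 87.1, 77.1 and 82.8 CPM at rest and at 305.4, 667.4, 366.8, 197.2 and 291.8 in cycling cells, a rise of 1.78 ± 0.10 (adjusted p = 1.14e-07). For each of the 3, the lowest cycling liver lay above the highest non-cycling one.

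The H2A genes had the highest median rise, 5.09, with all 10 tested of 18 passing and log2 fold changes from 3.43 to 6.48. Hist1h2ae stood at 10.8, 4.7, 9.5, 11.2 and 11.5 CPM in non-cycling T cells of the 5 livers and at 784.6, 1036.7, 609.8, 514.5 and 527.6 in cycling ones, a rise of 5.77 ± 0.12 (adjusted p = 8.64e-11, the smallest p of the 43 members). Hist1h2ap rose by 6.32 ± 0.16, Hist1h2ab by 6.48 ± 0.26, Hist1h2ak by 5.39 ± 0.23 and Hist2h2ac by 3.50 ± 0.13. Of the H2B genes 9 of 10 tested passed, with the smallest p for Hist1h2bj (4.78 ± 0.15) and the highest log2 fold change 4.97. All 8 tested H3 genes passed, from 2.60 to 6.78, with Hist1h3e at 3.53 ± 0.13. The H4 genes passed in 9 of 10 tests with the lowest median, 2.65, and Hist1h4d, at 37.1 to 48.8 CPM at rest, rose by 2.80 ± 0.10. The number of genes tested for each histone depends on the count filter, and differences between histones were not tested.

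Within the cycle, the members were low in cells at its start and high in its middle. Cycling T cells were divided, in a step chosen after the data were seen, into early cells (S-phase genes ahead by at least 6), middle cells and late cells (G2/M genes ahead by at least 6). Early T cells held 928.4, 447.6, 3082.9, 543.7 and 1462.9 histone CPM in the 5 livers. Middle T cells held 10950.3, 11761.2, 9063.4, 6958.0 and 8138.0, and late T cells 11067.0, 17855.6, 7830.5, 3697.0 and 5672.7. Control 25 had only 2 early, 2 middle and 5 late cells. Every liver was thus far higher in middle than in early cells, while middle and late levels overlapped. Single cells spread widely: the median early T cell had 5.35 histone UMIs per 10000 (10th to 90th percentile 1.15 to 25.8, 210 cells), the median middle cell 76.2 (5.35 to 181, 156 cells), the median late cell 39.3 (5.22 to 169, 81 cells) and the median non-cycling cell 3.11 (0 to 11.4).

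**Figure D4:**
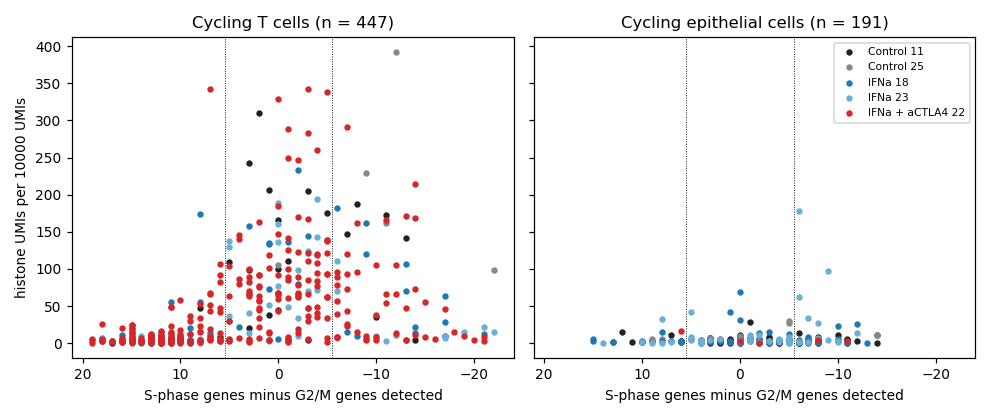
Each point is 1 cycling cell, coloured by liver; the x axis gives the number of S-phase genes minus G2/M genes detected, reversed so that the cycle runs from left to right, and the y axis the histone UMIs per 10000 UMIs; dotted lines bound the middle gate. T cells (447) rise from a median of 5.35 in the early gate to 76.2 in the middle gate, while the epithelial cells (191) have medians of 2.30, 3.62 and 3.89 in the 3 gates.

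Of 29 members tested, 28 were higher in middle than in early T cells, against 3.72% of all genes. Members low in early cells could enter this test only through the middle cells. Hist1h3e rose by 3.14 ± 0.18 (log2, SE, adjusted p = 3.45e-07), from 26, 0, 34.9, 17.4 and 31.8 CPM in early cells to 269.6, 132.1, 207.7, 184.8 and 290.5 in middle cells of Control 11, Control 25, IFNa 18, IFNa 23 and the combination. Hist1h4d (2.45 ± 0.18), Hist1h2ap (2.84 ± 0.22), Hist2h2bb (3.26 ± 0.26) and Hist1h2ae (3.29 ± 0.32) rose in the same comparison. Hist1h3a, at 1.01 (adjusted p = 0.196), was the member that did not pass. The comparison of early with non-cycling T cells had the same limit, since members low at rest could enter only through the early cells. It gave 19 of 27 members higher in early cells, against 20.6% of all genes, and 11 when the combination was left out. There the largest rises were those of Hist1h1b (4.29 ± 0.49), Hist1h2ap (4.25 ± 0.36), Hist1h2ab (4.11 ± 0.52) and Hist1h1a (4.05 ± 0.45).

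Against late cells, 4 of 32 members were higher in middle T cells, 3 of them linker histones, against 2.31% of all genes. Hist1h1a, an H1 variant of dividing cells, stood at 193.6, 348.4, 316.1, 191.2 and 268.9 CPM in middle cells of the 5 livers in the same order and at 171.5, 54.1, 53.1, 28.8 and 49.9 in late cells, and all livers were lower in late cells. The difference was 2.50 ± 0.24 (adjusted p = 0.000195), in a fit without the Control livers, which had 7 and 5 late cells. Hist1h1b differed by 1.09 ± 0.15 (adjusted p = 0.00149), Hist1h1d by 0.90 ± 0.17 (adjusted p = 0.00962) and Hist2h2bb by 1.20 ± 0.30 (adjusted p = 0.0371). With doublets kept, 1 member passed. No member was lower in middle than in late cells. In the 2-gate division, 26 of 30 members tested were lower in S-gated than in G2/M-gated T cells, against 5.39% of all genes, and none was higher. Among the 10 of smallest p the values ran from -2.22 for Hist1h3f to -1.13 for Hist1h1b. Members low in S-gated cells could enter this test only through the G2/M-gated ones. The S gate, of 291 cells, holds all 210 early cells.

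**Figure D5:**
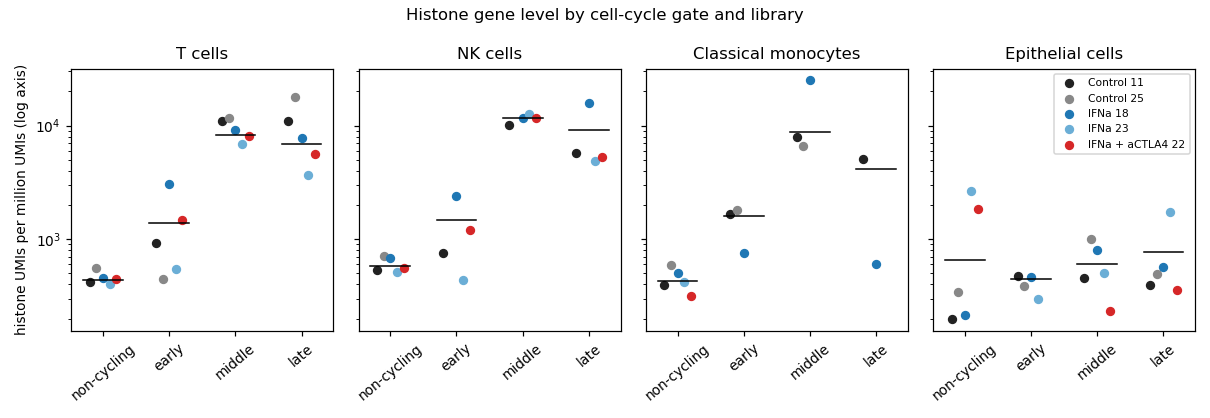
Histone UMIs per 1000000 UMIs (y axis, log) in non-cycling, early, middle and late cells of 4 classes; points are livers with at least 2 cells in the gate and the line pools all 5 livers. The pooled line climbs in T cells from 437.9 (non-cycling) through 1397.7 (early) to 8284.3 (middle), and in epithelial cells it stays between 442.4 and 776.3.

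Members reported to give poly-A tailed transcripts outside S phase (a list of 7 genes) were compared by the same gates. None of the 5 tested rose in early T cells, against 20.6% of all genes, and 5 genes are too few for this count to set the list apart. Their log2 differences from non-cycling cells ranged from -0.50 (Hist3h2ba, edgeR adjusted p = 0.427) to 0.86 (Hist1h2bc, adjusted p = 0.289). In all cycling T cells 4 of 5 rose, against 24.3% of all genes: Hist1h1c (1.78 ± 0.10), Hist1h2bc (1.81 ± 0.38), Hist4h4 (2.02 ± 0.20) and Hist1h2be (2.37 ± 0.25, overlapping Hist1h1e on the same strand). Hist3h2ba, an H2B gene on chromosome 11, stood at 11, 1.6, 8.5, 5.9 and 5.6 CPM in non-cycling T cells of the 5 livers and at 19, 12, 0, 11.2 and 15.4 in middle ones, so its gates overlapped. Hist2h2be and Hist3h2a were too low in T cells for the test, with 116 and 36 UMIs. Hist1h2bc, another H2B gene, stood at 77.1, 89.98, 60.3, 77.7 and 11.3 CPM in cycling epithelial cells of the 5 livers and at 15.2, 0, 18.1, 6.4 and 7.9 in middle T cells.

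Genes for making and processing histone mRNA (a list of 18) were higher in cycling T cells but did not follow the members within the cycle. In cycling against non-cycling T cells 14 of 17 tested genes of this list rose and none fell, against 24.3% of all genes higher, with a median log2 fold change of 1.08. In middle against early T cells 1 of 15 rose and 1 fell, with a median of 0.15, where the members' median was 2.69. In the S gate against the G2/M gate 4 of 14 were higher and 1 was lower. The genes that rose in cycling cells included Ccna2 and Ccne1, cyclins that start and drive S phase (7.48 ± 0.24 and 2.90 ± 0.16), E2f1, a transcription factor of the G1/S step (4.37 ± 0.22), and Slbp, the stem-loop binding protein (1.62 ± 0.09, adjusted p = 6.01e-08). Slbp was already high in early cells, at 229.9, 244.5, 215.0 and 263.6 CPM in Control 11, IFNa 18, IFNa 23 and the combination against 74.0, 76.9, 82.0 and 83.1 in non-cycling cells. It was lower again in late cells, by 1.16 ± 0.21 from the middle gate (adjusted p = 0.00850). Casp8ap2, a protein of the histone locus body, rose by 1.34 ± 0.13 in early cells.

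Of the 18 histone chaperones, which carry histones to DNA, 14 rose and 1 fell in cycling T cells, led by Mcm2 (3.40 ± 0.11, itself a gene of the S-phase list), Chaf1a (3.85 ± 0.14), Asf1b (4.71 ± 0.19) and Nap1l1 (1.79 ± 0.08). Of 9 tested replication-independent histone genes (of 11), 8 rose, with a median of 0.59. H2afx, the H2A variant phosphorylated at DNA breaks, rose by 2.83 ± 0.12, Cenpa, the centromeric H3 and a gene of the G2/M list, by 2.60 ± 0.11, H2afz by 2.18 ± 0.09 and H2afv by 1.55 ± 0.08. H2afx, H2afv and Cenpa were lower in middle than in late cells (by log2 -0.90, -0.71 and -1.41), the opposite order to Hist1h1a and Hist1h1b.

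NK cells showed the same division. Non-cycling NK cells held 530.9 and 715.3 histone CPM in the Control livers, 678.6 and 512.4 in the IFNa livers and 555.5 in the combination, and cycling NK cells 5139.2 in Control 11 (9 cells), 7709.7 and 3572.7 in the IFNa livers (29 and 14 cells) and 5477.9 in the combination (11 cells). Control 25 had no cycling NK cell among 36. All 32 members tested were higher in cycling NK cells, against 16.8% of all genes, in a fit on 3 livers. In the S gate 17 of 23 were higher, against 11.2%, in a fit on the IFNa livers alone. As in T cells, members low in non-cycling cells could enter these tests only through the cycling cells. Hist1h1b rose by 6.33 ± 0.21, Hist1h2ae by 5.83 ± 0.22 and Hist1h1e by 2.23 ± 0.12 (edgeR, largest adjusted p of the 3 5.78e-18). Cycling classical monocytes, too few for a test outside Control 11, held 4373.3 and 4189.3 CPM in the Control livers (30 and 7 cells) and 6136.3 in IFNa 18 (7 cells), against 397.8, 598.0 and 503.3 in non-cycling ones.

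Epithelial cells, gated by Epcam, keratins and similar genes that tumour and bile duct cells both express, gave no call for a member. Their cycling cells held 445.7 and 676.0 histone CPM in the Control livers (66 and 14 cells), 679.8 and 747.2 in the IFNa livers (59 and 47 cells) and 428.0 in the combination (5 cells). Their non-cycling cells held 200.2, 343.4, 214.9, 2662.8 and 1837.3. The gates overlapped because of IFNa 23 and the combination, whose non-cycling cells numbered 76 and 8, with medians of 2388 and 2229.5 UMIs a cell against 5765 to 6610 in the other livers. None of the 10 members tested passed in cycling against non-cycling epithelial cells, with 10.3% of all genes called in either direction, and none in the S gate, with 4.38% called. At an unadjusted p under 0.05 the count was 1 in each of these comparisons, and by DESeq2 it was 0 in each. The 1 in all cycling cells was Hist1h2ap, at 1.31 ± 0.60 (adjusted p = 0.174), and Hist1h1b stood at 9.1, 9.2, 29.9, 37.4 and 11.3 CPM in cycling epithelial cells of the 5 livers. The gate genes did rise there, 15 of 16 S-phase and 18 of 19 G2/M genes tested, as their use in the gate requires. In the S gate, 1 member passed when any of Control 11, IFNa 18 or IFNa 23 was left out, and 1 passed in all cycling cells with Control 11 left out.

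The difference of the cycling effect between T cells and epithelial cells was tested as an interaction in the 3 livers with enough cells of both, in a step added after the data were seen. It passed for 18 of 38 members, all with the higher value in T cells, against 3.14% of all genes. Only 10 of the 38, and 8 of the 18, had counts enough for a test in epithelial cells alone, so the rest could enter through the cycling T cells where they are high, and the count is a description. The difference was 5.21 ± 0.55 (log2, SE) for Hist2h2ac (adjusted p = 0.000353), 8.40 ± 1.00 for Hist1h1b, 5.35 ± 0.66 for Hist1h2ae and 3.14 ± 0.52 for Hist1h4d. In 13 of the 18 the difference exceeded the member's own rise in T cells (6.42 for Hist1h1b, in the fit on 4 livers), so it is not a measure of the T cell rise alone, and epithelial counts were low. The count was 11 without Control 11 and 9 without IFNa 23. The gate genes differed too: 5 of 25 S-phase and 8 of 25 G2/M genes had the higher value in T cells, and Mki67 and Top2a stood at 620.5 and 513.2 CPM in cycling T cells against 165.4 and 67.3 in cycling epithelial cells. With cells thinned to 3000 UMIs and gated again, cycling T cells held a mean of 13.6 histone UMIs of 3000 against 1.15 in non-cycling ones, and cycling epithelial cells 2.75 against 0.983. In the thinned epithelial cells the cycling mean was above the non-cycling one in the Control and IFNa livers (2.04 against 0.561 in Control 11, 2.40 against 1.69 in Control 25, 2.16 against 0.672 in IFNa 18, 4.73 against 2.10 in IFNa 23) and below it in the combination (2.20 against 4.50, with 10 and 4 cells). The part of cycle position and of depth in the difference was not tested.

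Neutrophil precursors, gated by granule genes such as Ngp, Camp, Elane and Mpo, numbered 56 cells, 44 of them in Control 11. Their 22 cycling cells held 3939.5 histone CPM in Control 11 (11 cells), 4496.1 in Control 25 (3 cells), 921.4 in IFNa 18 (3 cells), 574.0 in IFNa 23 (1 cell) and 3003.8 in the combination (4 cells). The 3 and 1 cells of the IFNa livers had azurophil granule genes (Elane, Mpo, Prtn3, Ctsg) at 23766.1 and 13997.4 CPM and later granule genes (Ngp, Camp, Ltf, Fcnb) at 17.4 and 0. In the cycling cells of the other livers the later granule genes led, at 37274.2, 66004.2 and 60815.8 CPM. The 32 non-cycling precursors were all from Control 11 and held 1978.6 CPM, from 0 to 7036.8 in single cells, at a median of 2173.5 UMIs. Mature neutrophils held 510.2 and 1079.8 CPM in the Control livers, 506.2 and 659.4 in the IFNa livers and 382.4 in the combination. Cycling precursors were above mature neutrophils in Control 11, Control 25, IFNa 18 and the combination and below them in the single cell of IFNa 23. In every liver this sets cycling precursors against mature neutrophils of any gate, so cycle and maturity cannot be told apart. Only 1 liver had 10 precursors, so no test was made, and the values have no replicate check.

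For the treatments, no member passed a test between groups over all T cells. All 3 comparisons share libraries: IFNa and the combination are set against the same Control livers. The 53 members tested gave 0 calls for IFNa against Control, where 0.584% of all genes were called, 0 for the combination against Control (1.13%) and 0 for the combination against IFNa (0.264%), in edgeR and in DESeq2. At an unadjusted p under 0.05 the counts were 7, 0 and 1. The members' median log2 difference was -0.72 for IFNa against Control, with all genes at 0.00. Without Control 11, 6 members passed for IFNa and 2 for the combination. The interferon list checks the treatment labels, and 13 of its 15 genes rose in T cells of both IFNa groups, led by Irf7 (2.35 ± 0.14) and Oasl2 (2.80 ± 0.17) for IFNa.

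In S-gated T cells alone, where the number of dividing cells no longer enters, none of 33 members passed in any of the 3 comparisons, with 0.139%, 0.185% and 0.0463% of all genes called for IFNa, the combination and the combination against IFNa. At an unadjusted p under 0.05 the counts were 9, 6 and 2, and DESeq2 gave 0, 0 and 0. These fits used 4 livers, since Control 25 had 3 S-gated cells, so Control was a single liver assumed to vary like the others. The fit made few calls of any kind: of the 15 interferon genes 1 passed for IFNa and 1 for the combination, at median log2 differences of 2.04 and 2.255, while the members' medians were -0.47 and -0.61. The absence of calls therefore does not show that the members did not differ. The S gate also pools early and middle cells, whose histone levels differ. The part of that mix in the members' medians was not tested. The count for IFNa was 3 without the combination. The share of T cells in cycle after thinning was 4.99% in Control 11 (exact 95% interval 3.50 to 6.88, 77 cells of under 3000 UMIs left out), 8.55% in Control 25 (4.18 to 15.2, 7 left out), 6.07% in IFNa 18 (4.46 to 8.04, 82 left out), 7.63% in IFNa 23 (6.09 to 9.42, 76 left out) and 10.6% in the combination (9.54 to 11.7, 719 left out). Unthinned shares were 4.24%, 7.26%, 5.23%, 6.39% and 7.67%. The Control and IFNa livers overlapped, and the combination was the highest. The share of T cells with at least 10 histone UMIs of 3000 ran differently, at 2.71%, 5.98%, 2.83%, 1.93% and 4.36%. It was highest in Control 25 and lowest in IFNa 23. Among non-classical monocytes, a class without cycling cells, 0, 0, 0.345%, 0 and 0% of cells reached that level. Intervals cover counting error only, and 2 against 2 livers cannot go below p = 0.333 in an exact permutation test.

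Among the T cell gates, calls were made in CD8 T cells and in neither CD4 nor regulatory T cells, and the difference between the gates was not tested. The members' median log2 difference for IFNa against Control was -1.03 in CD8 T cells (44 members tested), -1.06 in CD4 T cells (31) and 0.04 in regulatory T cells (41). At an unadjusted p under 0.05 (edgeR) the counts were 16, 9 and 3. The lower values were thus not particular to CD8 T cells. In CD8 T cells, Hist1h1b stood at 191.3 and 216.8 CPM in the Control livers, 37.4 and 47.2 in the IFNa livers and 141.3 in the combination. Both Control livers lay above the combination, which lay above both IFNa livers. It fell by 2.25 ± 0.21 (log2, SE, edgeR adjusted p = 0.00383) in IFNa against Control and was higher by 1.68 ± 0.23 (adjusted p = 0.0149) in the combination against IFNa. Hist1h1d stood at 128.1 and 221.6, 41 and 52.7, and 113.4 CPM, and fell by 1.83 ± 0.27 (adjusted p = 0.0263). Hist1h2ak stood at 87.1 and 48.2, 22.3 and 21.2, and 43.0 CPM, and fell by 1.75 ± 0.29 (adjusted p = 0.0395). These were 3 of 44 members lower in IFNa, against 0.0628% of all genes, and 1 of 44 higher in the combination against IFNa, against 0.233%. None of the 44 passed for the combination against Control, where 0.619% of genes were called, with 4 at an unadjusted p under 0.05, 0 by DESeq2, and 1 called without IFNa 18 and 2 without IFNa 23.

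The CD8 calls rested on both Control livers: without Control 11 or without Control 25, none of the members passed in either comparison. For IFNa against Control, the count was 8 when IFNa 18 was left out, 5 for IFNa 23 and 2 for the combination, and with at least 4 markers or with doublets kept Hist1h1b alone passed. The combination against IFNa gave 2 without IFNa 18 and 3 without IFNa 23, and 0 with at least 4 markers and 0 with doublets kept, so the Hist1h1b call was lost in both. Control CD8 T cells numbered 279 and 40, with 14 and 4 cycling cells. The thinned share of CD8 T cells in cycle was 5.68% and 10.3% in the Control livers, 5.69% and 9.48% in the IFNa livers and 11% in the combination, so Control and IFNa overlapped in it. Within cycling CD8 T cells the histone level was 10530.2 and 7470.0 CPM in the Control livers, 3887.8 and 2125.3 in the IFNa livers and 4364.8 in the combination. Early cells were 4 of 14 and 1 of 4 in the Control livers, 9 of 17 and 22 of 37 in the IFNa livers and 93 of 189 in the combination. Non-cycling CD8 T cells lay at 444.0, 400.6, 389.5, 391.1 and 454.8 CPM. The part of the gate make-up in the calls was not tested.

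In classical monocytes, recruited from the blood, 3 of 45 members were lower in IFNa than in the Control livers, against 2.68% of all genes, and 2 of 45 were lower in the combination, against 1.98%. Hist1h1a stood at 14.3 and 21.8 CPM in the Control livers, 6.3 and 2.7 in the IFNa livers and 1.1 in the combination, and fell by 1.91 ± 0.38 (adjusted p = 0.0226) and by 3.91 ± 0.73 (adjusted p = 0.0154). Hist1h2ak fell by 1.36 ± 0.32 and Hist1h1b by 1.71 ± 0.41 in IFNa, and Hist1h2ab by 2.62 ± 0.61 in the combination. None passed for the combination against IFNa, where 0.326% of genes were called, with 3 at an unadjusted p under 0.05, 0 by DESeq2 and 4 called without IFNa 23. The thinned share of cycling monocytes was also lower with treatment. Control 11 and 25 stood at 1.90% and 3.61%, and IFNa 18 and 23 at 0.739% and 0.158% (the last being 1 of 632 cells). The combination had 0% of 331 cells (upper exact limit 1.11%). The part of the cycling share in the calls was not tested. Non-cycling monocytes held 397.8 and 598.0, 503.3 and 416.9, and 313.7 CPM, which overlapped between Control and IFNa. Leaving out Control 11, Control 25, IFNa 18 or IFNa 23 gave 1, 0, 9 and 5 calls for IFNa, and 1, 0, 12 and 14 for the combination. With doublets kept the calls numbered 0 and 1.

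The other 36 treatment comparisons, in 12 classes, gave 3 calls in 900 tests of members, where 1.31% of all gene tests were called, with 82 member tests at an unadjusted p under 0.05 and 0 calls by DESeq2. All 3 were in mature dendritic cells of the combination: Hist1h1b against Control and against IFNa (3.04 ± 0.57), and Hist1h2ae against Control. Control had 0 UMIs of both, so its fitted fold changes are not bounds. Without Control 11, Control 25, IFNa 18, IFNa 23 or the combination, the calls over these comparisons numbered 64, 37, 29, 23 and 0. A single combination cell held 32 of the 44 Hist1h1b UMIs and 21 of the 32 Hist1h2ae UMIs there.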

How the data were processed

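Cells of 5 livers were profiled by poly-A primed droplet RNA sequencing. The authors deposited UMI counts per gene and barcode and, per the submitters' processing notes, used Cell Ranger 7.0.1 with the build mm10. How reads shared by genes were counted at that step was not examined. The histone members and gene lists were chosen with earlier results of these data known, and the early, middle and late gates and the T cell against epithelial interaction were chosen after seeing the data. Barcodes under 200 genes or over 15% mitochondrial UMIs were dropped. A class needed at least 3 detected markers and more than any other class, and barcodes with 3 markers of 2 lineages were removed as doublets, with no doublet caller. Counts were summed per liver and gate (at least 10 cells), filtered with filterByExpr, scaled by TMM and tested by edgeR's quasi-likelihood test (edgeR 4.0.16, limma 3.58.1, R 4.3.3) with Benjamini-Hochberg adjustment over all genes tested at 0.05. Gates were compared with the liver as a block, since both gates come from the same liver. Treatments were fitted as 3 groups, the single combination library being assumed to vary like the others. Members named with folds were the 10 of smallest p in a comparison, plus fixed lists; others named were chosen after their values were seen. Alternatives were DESeq2 1.42.0, no filter, left-out livers, stricter gates, 4 markers, doublets kept and unthinned or per-cell means. Cells were thinned to 3000 UMIs, with at least 6 gate genes for cycling and at most 2 for non-cycling. The scripts were tested on simulated data. Exact binomial intervals have a level of 95% and cover counting error only. Figures used matplotlib 3.10.9.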

Additional observations from a re-analysis of the deposited data

Results flagged for a closer look

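In the interaction of cell type and cycle, which was chosen after seeing the data, the cycling effect differed between T cells and epithelial cells for 18 members by edgeR's quasi-likelihood test, each time with the higher value in T cells. Of the 38 members tested, 10 had counts enough for a test in epithelial cells alone, and of the 18 called, 8 did. The 10 of smallest p differed by 5.21 (Hist2h2ac), 8.40 (Hist1h1b), 5.35 (Hist1h2ae), 7.32 (Hist1h2ab), 9.73 (Hist1h2af), 7.12 (Hist1h2ak), 3.14 (Hist1h4d), 3.39 (Hist1h3e), 5.04 (Hist1h1d) and 5.09 (Hist1h2ap) on the log2 scale. For 13 of the 18 the difference exceeded the rise in T cells (6.01 for Hist1h2af), so it is not a measure of the T cell rise alone. In epithelial cells Hist1h2af had 15 UMIs in non-cycling and 11 in cycling cells, summed over the 5 livers. Hist1h2af, Hist1h2ak and Hist1h3e lost the call when IFNa 23 was left out. Non-cycling epithelial cells of IFNa 23 held Hist1h1b at 333.9 CPM against 8.4, 0, 9.6 and 44.8 in the other livers, at a median of 2388 UMIs, and the part of these cells in the difference was not tested.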

How the results depend on the processing

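Against the alternatives run, 154 of the main counts and levels stayed within their limits and 77 moved. Of the named members' values, 793 kept their call, 44 lost it and none changed sign. The pairing of gates by liver could be tested: without the replicate block, 34 members were higher in S-gated than in non-cycling T cells, 41 in cycling ones, 19 in early ones, 27 in middle than in early, 3 in middle than in late and 15 in the interaction, 25 were lower in S-gated than in G2/M-gated T cells, 17 and 32 were higher in S-gated and cycling NK cells, and 0 and 0 changed in epithelial cells. No paired analysis was possible because the treatment groups share no liver numbers. Leaving out 1 liver at a time gave 9 to 12 members in the interaction, 11 to 22 in early T cells, 0 to 6 (IFNa) and 0 to 2 (combination) in T cells against Control, 0 to 3 in S-gated T cells, 1 to 1 (S gate) and 0 to 1 (cycling) in epithelial cells, 0 to 8, 0 to 2 and 0 to 3 in CD8 T cells (IFNa, combination, combination against IFNa), 0 to 9, 0 to 14 and 0 to 4 in classical monocytes in that order, and 0 to 64 in the other 36 comparisons. In S-gated T cells, IFNa against Control could be refitted only without the combination, and the combination against IFNa only without Control 11. The combination against Control could not be refitted, so that range spans different comparisons. Without the filter on low counts the calls were 9, 4 and 1 in T cells, 3 and 3 in S-gated T cells (IFNa, combination), 8, 1 and 5 in CD8 T cells, 11, 13 and 1 in classical monocytes, 1 and 1 in epithelial cells and 61 in the other comparisons. DESeq2 gave 5 in CD8 T cells and 1 in classical monocytes for IFNa against Control, and 0 in the other 36 comparisons. Stricter gates gave 3 and 2 in S-gated T cells (IFNa, combination), 4 markers 3 and 1, and doublets kept 3 and 1. In CD8 T cells 4 markers gave 1 and 0 and doublets kept 1 and 0 (IFNa, combination against IFNa). Doublets kept gave 0 and 1 in classical monocytes and 1 for middle against late T cells. The cause of these moves was not tested. The cycling share of the combination was 7.67% unthinned and 8.78% with the stricter gate in T cells and 8.53% unthinned in CD8 T cells, and that of IFNa 23 CD8 T cells 6.90% with the stricter gate. T cell histone levels as a mean over cells were 749.9, 1416, 746.2, 727.2 and 992.9 CPM, and with doublets kept 1267.1, 2475.6, 1146.9 and 1315.3 (IFNa 23 stayed within its limit). The test in neutrophil precursors was not run, since 1 liver had 10 such cells.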

Other observations

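Some small classes held a large part of their histone UMIs in a few dividing cells. Cycling erythroid precursors, which divide quickly as they mature to red cells, held 27143.2 CPM in Control 11 (3 cells, 783 of the 787 histone UMIs of the class there) and 7987.2 in IFNa 18 (2 cells), while non-cycling ones held 37.6, 12.2, 43.8 and 0 CPM in Control 11, IFNa 18, IFNa 23 and the combination.

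Type 1 dendritic cells, which present antigen to CD8 T cells, held 3888.8 CPM in the 5 cycling cells of Control 11, 3916.8 in 11 of IFNa 18, 1376.5 in 8 of IFNa 23 and 1304.9 in 8 of the combination. In Control 25, 1 cycling cell held 1026 of the 1056 histone UMIs of the 5 cells gated. Plasma cells, which secrete antibody, numbered 238 in the combination and 1 to 18 in the other livers, and 19 cycling ones held 3679.5 CPM against 593.0 in non-cycling ones there. No test was made of these values.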
